A study of Homo sapiens with 6 samples.

Results

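The genes that put peptides on MHC class I molecules were followed in RPMI-8402 cells, a human T-cell acute lymphoblastic leukaemia line, after guide RNAs against MYC and MYCN had been switched on. The group was defined by symbol and holds 9 genes, HLA-B, HLA-C, HLA-E, B2M, TAP1, TAP2, TAPBP, NLRC5 and ERAP1, out of 63677 genes in the count table. Where a symbol had several Ensembl IDs, the ID with the highest total count was used. The other IDs with these symbols held 7 counts in all, every one under a second TAP2 ID. All 9 genes passed the filter on low counts.

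The DOX group held 3 libraries of cells with stably expressed Cas9 that were given doxycycline for 72 hours; the series text gives MYC and MYCN as targets of the induced guides, the treatment protocol gives MYC alone, and the genotype entry reads MYCN_knockout. The DMSO group held 3 libraries of the same Cas9 cells given DMSO, with the genotype label control. The libraries are named by the number in their count column, as DOX 12, 24 and 36 and DMSO 11, 23 and 35. Doxycycline alone, in cells that carry no guides, was not analysed here, and effects of the drug and of the guides cannot be told apart. The labels do not say whether the 3 libraries of each group are separate cultures; if they are not, the p-values below describe technical spread. In bulk RNA, fewer cells of a kind and less RNA per cell cannot be told apart.

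MHC class I molecules are built from a polymorphic heavy chain (HLA-B, HLA-C or the less variable HLA-E), the light chain beta-2 microglobulin (B2M) and a short peptide. The TAP1 and TAP2 transporter carries peptides from the cytosol into the endoplasmic reticulum, the aminopeptidase ERAP1 trims them there, and tapasin (TAPBP) holds empty class I molecules at the transporter while they are loaded. NLRC5 is the co-activator that, with factors bound at the SXY module of class I promoters, drives heavy chain, B2M and TAP1 transcription in lymphoid cells. MYCN-amplified neuroblastoma is known for low class I expression.

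Library totals ran from 28602145 to 29204148 counts. Levels are CPM, counts per 1000000 after TMM scaling, as mean ± SD (n = 3 each). Of the targeted transcripts, MYCN stood at 49.98 ± 3.80 CPM in DOX and 91.1 ± 16.7 CPM in DMSO. MYC stood at 199.7 ± 6.57 CPM in DOX and 245 ± 39.7 CPM in DMSO. EdgeR called neither over the 6 libraries (adjusted p = 0.0726 for MYCN and 0.176 for MYC). DESeq2 called MYCN lower in DOX (adjusted p = 8.05e-06) and did not call MYC (adjusted p = 0.149). The groups overlapped for MYC and not for MYCN. With DMSO 11 left out, edgeR called MYCN (adjusted p = 2.26e-07) but not MYC (adjusted p = 0.0566). DMSO 11 stood apart from its group: over 9311 genes its root mean square log2 distance was 0.43 to DMSO 23 and 0.41 to DMSO 35, and 0.18 to 0.21 to the DOX libraries. The 12 T-lineage markers summed to 2352 to 2453 CPM in DOX and 2383 to 2617 CPM in DMSO, carried by LCK, DNTT, CD3E and CD3D, while CD1A was at 0 to 0.139 CPM. DESeq2 called 2 of the 11 tested as lower in DOX, PTCRA and LMO1, where it called 6.89% of all genes as lower. Without DMSO 11 edgeR called 3 of the 11 as higher and 3 as lower, where it called 49.4% of all genes. Markers of B cells, monocytes, dendritic cells, endothelium and erythroid cells each summed to at most 4.17 CPM in any library, and MS4A1, NCR1 and PECAM1 held no counts. The 4 NK cell markers summed to 36.6 to 39.2 CPM in DOX and 37.8 to 47.3 CPM in DMSO, most of it NKG7. The 4 fibroblast markers summed to 9.49 to 10.2 CPM in DOX and 2.71 to 7.43 CPM in DMSO. COL1A1 made up most of that sum, while COL1A2 and DCN were at 0 to 0.0357 CPM in every library. These cells' part in the class I results was not tested.

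None of the 9 class I genes passed the test between DOX and DMSO, and the differences were small. Heavy chains, B2M, TAPBP and NLRC5 had higher means in DOX, with log2 fold changes from 0.07 to 0.27, and TAP1, TAP2 and ERAP1 had lower means, from -0.22 to -0.17. The median log2 fold change (DOX over DMSO) was 0.14 over the 9 genes and -0.00307 over all 15949 genes tested. EdgeR's quasi-likelihood test called 0 of the 9 at a Benjamini-Hochberg adjusted p of 0.05, where it called 0.0313% of all genes, and DESeq2's Wald test called 0 of 9, where it called 9.96%. The authors' deposited table likewise called 0 of 9, where it called 9.57%. The same edgeR test also left the targeted transcripts MYCN and MYC uncalled, while DESeq2 called MYCN. With voom, other scalings, a filter of 1 CPM in 3 libraries or a non-robust fit, 0 of 9 were called and 0.0313% to 0.0376% of all genes (0.0372% with that filter). With no filter on low counts 0 of 9 were called and 5.56% of all genes. At an unadjusted edgeR p under 0.05 there was 1 of the 9 genes, ERAP1, against 26.0% of all genes. The 3 DOX libraries lay wholly above or wholly below the 3 DMSO libraries for 3 of the 9 genes, 33.3%, close to the 30.2% of all genes tested.

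Leaving out DMSO 11 changed these calls. EdgeR then called 6 of the 9 genes, with NLRC5, TAPBP, B2M and HLA-E higher and ERAP1 and TAP1 lower in DOX, in a fit that called 49.4% of all genes (23.7% as higher and 25.7% as lower). DESeq2 called the same number, 6 of 9, without DMSO 11, where it called 39.1% of all genes. Leaving out any other library left 0 of the 9 genes called by edgeR, in fits that called 0% of all genes. DMSO 11 was the DMSO library nearest to the DOX mean for 6 of the 9 genes (66.7%), and for 58.8% of all genes tested.

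**Figure D1:**
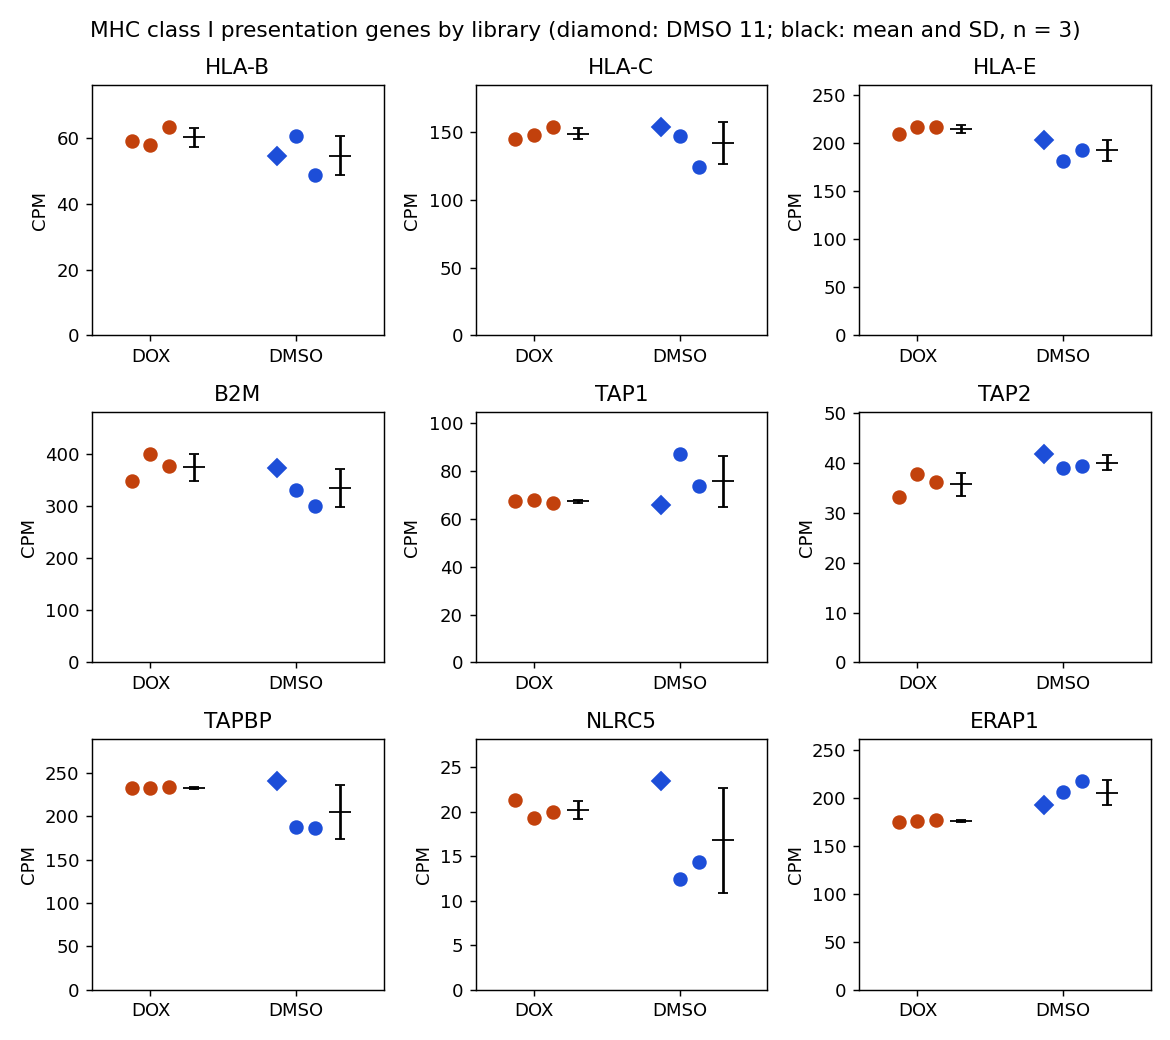
Level of each class I gene in CPM by library, with DOX on the left and DMSO on the right of each panel; points are libraries, the diamond is DMSO 11, and the black mark gives the mean and SD (n = 3). TAPBP and NLRC5 are at 241 and 23.5 CPM in DMSO 11, above every DOX library, while DMSO 23 and DMSO 35 are below every DOX library.

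The promoters of these genes show what the members share in sequence. RefSeq windows (GRCh38.p14) were found for 7 of the 9 genes, in 9 windows, and the 250 bases upstream of each start were searched on both strands. The interferon response motif ISRE (GAAANNGAA) occurred in 4 members, B2M, TAP1, TAP2 and TAPBP, and in 6.87% of 34943 promoters of the same length. An NF-kB motif occurred in 6 members and in 9.95% of promoters, and the Y box core CCAAT in 5 members and in 32.0% of promoters. The MYC-type E box CACGTG occurred in 0 of the 9 windows and in 6.32% of promoters, and the X2 core TGACGT in 0 windows and in 7.09%. The X box core CCNNAGCAA and the GAS motif TTCNNNGAA each occurred in 1 member, in the second TAP1 window, and in 3.70% and 6.56% of promoters. A match describes letters in the window and is not evidence of binding. A site that departs from the letters searched is not counted, so 0 matches do not show that a site is absent.

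The 5 windows below are shown because B2M, TAP1 and TAPBP hold ISRE matches to the letters searched and HLA-B and HLA-C do not. NF-kB matches occurred in all 5 windows, and Y box matches in all but TAPBP. Capitals mark matches to the ISRE, NF-kB and Y box motifs, which can overlap, and each run reads 5′ to 3′ on the gene's strand. In B2M and in TAPBP, overlapping ISRE matches span positions -144 to -130 and -20 to -6 from the start, and in TAP1 positions -133 to -119. HLA-B and HLA-C matched at 226 of 246 aligned bases (91.9%), and neither window holds an ISRE match to these letters.
HLA-B (chr6:31357180-31357429, minus strand): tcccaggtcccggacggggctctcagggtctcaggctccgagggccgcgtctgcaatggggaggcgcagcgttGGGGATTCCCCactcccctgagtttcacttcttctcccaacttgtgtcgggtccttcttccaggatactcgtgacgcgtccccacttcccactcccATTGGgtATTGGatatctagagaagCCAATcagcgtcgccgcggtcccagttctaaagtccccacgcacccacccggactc
HLA-C (chr6:31272093-31272342, minus strand): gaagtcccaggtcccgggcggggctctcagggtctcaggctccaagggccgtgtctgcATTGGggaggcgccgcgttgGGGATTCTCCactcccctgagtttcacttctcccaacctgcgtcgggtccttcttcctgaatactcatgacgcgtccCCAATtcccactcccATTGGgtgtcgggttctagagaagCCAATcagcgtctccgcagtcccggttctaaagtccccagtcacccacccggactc
B2M (chr15:44711267-44711516, plus strand): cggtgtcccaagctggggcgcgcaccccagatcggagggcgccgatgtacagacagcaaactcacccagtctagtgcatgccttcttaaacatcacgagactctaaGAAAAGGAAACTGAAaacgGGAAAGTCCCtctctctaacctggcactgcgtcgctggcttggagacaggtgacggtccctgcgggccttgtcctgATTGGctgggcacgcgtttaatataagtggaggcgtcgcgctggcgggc
TAP1 (chr6:32853705-32853954, minus strand): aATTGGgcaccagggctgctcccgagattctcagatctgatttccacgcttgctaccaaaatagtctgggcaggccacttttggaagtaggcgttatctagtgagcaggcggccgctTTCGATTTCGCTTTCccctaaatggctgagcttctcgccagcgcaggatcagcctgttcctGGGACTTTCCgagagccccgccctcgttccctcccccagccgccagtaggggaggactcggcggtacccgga
TAPBP (chr6:33314079-33314328, minus strand): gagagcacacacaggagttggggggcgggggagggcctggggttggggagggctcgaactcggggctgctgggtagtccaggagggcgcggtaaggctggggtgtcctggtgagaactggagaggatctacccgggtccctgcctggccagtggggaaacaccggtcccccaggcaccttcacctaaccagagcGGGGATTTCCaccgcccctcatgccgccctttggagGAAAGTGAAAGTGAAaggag

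The heavy chains were compared by library. HLA-B (ENSG00000234745, chromosome 6), a classical heavy chain that presents peptides to CD8 T cells, stood at 59.3, 58.1 and 63.5 CPM in DOX 12, 24 and 36, against 54.7, 60.8 and 48.8 CPM in DMSO 11, 23 and 35. The groups overlapped, with DMSO 23 above 2 of the DOX libraries, and the log2 fold change was 0.14 ± 0.10 (SE; edgeR adjusted p = 0.387). HLA-C (ENSG00000204525, chromosome 6), a classical heavy chain that is also read by NK cell receptors, stood at 145, 148 and 154 CPM in DOX, against 154, 147 and 125 CPM in DMSO 11, 23 and 35. Its highest value was in DMSO 11 and its lowest in DMSO 35, and the log2 fold change was 0.07 ± 0.10 (edgeR adjusted p = 0.659). HLA-C was the 1 member whose direction turned with a left-out library: without DMSO 35 its log2 fold change was -0.0188.

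HLA-E (ENSG00000204592, chromosome 6), the non-classical heavy chain that presents leader peptides of other class I chains to NK cell receptors, stood at 209.8, 217 and 217 CPM in DOX 12, 24 and 36. In DMSO 11, 23 and 35 it stood at 203, 181 and 193 CPM, so every DOX library lay above every DMSO library. Its log2 fold change was 0.16 ± 0.08, with an edgeR adjusted p of 0.255 and a two-sided exact permutation p of 0.1, the smallest that 3 against 3 libraries allow. Without DMSO 11 edgeR called it as higher in DOX (0.20 ± 0.06 on the log2 scale, adjusted p = 0.0156).

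Counts of heavy chain genes can be shared between near copies. Of the windows of 100 bases (the read length) in the annotated protein-coding transcripts, 0.230% of those of HLA-C and 0.600% of those of HLA-E also occurred in a transcript of another gene. For HLA-B the share was 22.2%, all of it with AL671883.2, a pseudogene on the opposite strand that held 2 counts over the 6 libraries. AL671883.2 overlaps 542 exon bases of HLA-B. Whether reads there are missing from the HLA-B count, and so from its level beside HLA-C, was not tested. These shares are for the reference alleles; those carried by RPMI-8402 were not analysed here, and reads of alleles far from the reference may be missed in all 6 libraries alike, which was not tested.

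B2M (ENSG00000166710, chromosome 15), the light chain that every class I molecule needs to reach the surface, had the highest count of the 9 genes. It stood at 347, 399.6 and 375 CPM in DOX 12, 24 and 36, against 372, 330.5 and 301 CPM in DMSO 11, 23 and 35. DMSO 11 lay among the DOX libraries and the other DMSO libraries lay below all of them. The log2 fold change was 0.16 ± 0.11 (edgeR adjusted p = 0.352) over all libraries and 0.24 ± 0.07 without DMSO 11 (adjusted p = 0.00994). None of its windows of 100 bases occurred in another annotated gene.

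Among the genes of peptide transport, TAP1 (ENSG00000168394, chromosome 6) stood at 67.5, 67.8 and 66.7 CPM in DOX 12, 24 and 36. In DMSO 11 it was lower than in any DOX library, at 65.9 CPM, and it was higher in DMSO 23 and DMSO 35, at 87.1 and 73.7 CPM. Its log2 fold change was -0.17 ± 0.11 (edgeR adjusted p = 0.341), against -0.26 without DMSO 11 (adjusted p = 0.00621) and -0.06 without DMSO 23. TAP1 exons overlap 456 exon bases of the antisense gene TAPSAR1 (PSMB8-AS1 in GENCODE), and 12.3% of its windows are shared with it. TAPSAR1 itself held 8.55 ± 0.332 CPM in DOX and 10.1 ± 1.53 CPM in DMSO, with a log2 fold change of -0.25 ± 0.14 (edgeR adjusted p = 0.286).

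TAP2 (ENSG00000204267, chromosome 6), the partner subunit of TAP1, stood at 33.1, 37.8 and 36.0 CPM in DOX 12, 24 and 36, against 41.8, 39.0 and 39.3 CPM in DMSO 11, 23 and 35. Every DOX library lay below every DMSO library, and here DMSO 11 was the DMSO library farthest from DOX. The log2 fold change was -0.17 ± 0.09, with an edgeR adjusted p of 0.263 and an exact permutation p of 0.1. Unlike for TAP1, edgeR did not call it without DMSO 11 (log2 fold change -0.14 ± 0.08, adjusted p = 0.149). Of its windows of 100 bases 31.9% are shared with the overlapping annotated gene AL669918.1, the TAP2 ID that held 7 counts. AL669918.1 lies on the same strand and overlaps 2064 exon bases of TAP2. Whether reads there are missing from the TAP2 count, and so from its level beside other genes, was not tested.

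TAPBP (ENSG00000231925, chromosome 6), the tapasin gene, stood at 232, 233 and 234 CPM in DOX 12, 24 and 36. It was highest in DMSO 11, at 241 CPM, and lowest in DMSO 23 and DMSO 35, at 188 and 187 CPM. The spread of the 3 DOX libraries, a coefficient of variation of 0.425%, was below the 1.22% that counting alone gives, and that of the DMSO libraries was 15.1%. The log2 fold change was 0.18 ± 0.11 (edgeR adjusted p = 0.318) over all libraries and 0.31 ± 0.06 without DMSO 11 (adjusted p = 0.000327).

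ERAP1 (ENSG00000164307, chromosome 5), the trimming aminopeptidase, came nearest to a call. It stood at 175, 176 and 177 CPM in DOX 12, 24 and 36, against 193, 207 and 218 CPM in DMSO 11, 23 and 35, with every DOX library below every DMSO library. Its log2 fold change was -0.22 ± 0.08, the lowest adjusted p of the 9 genes in edgeR (0.144) and in DESeq2 (0.0951), and the exact permutation p was 0.1. In the authors' deposited table its log2 fold change was -0.23 with a standard error of 0.0950 and an adjusted p of 0.0968, the lowest of the 9 genes there too. With 1 library left out the log2 fold change lay between -0.27 and -0.19, and edgeR called it without DMSO 11 (adjusted p = 0.00123). Its exons overlap CAST and AC008906.1 on the opposite strand, which held 838 and 145 counts over the 6 libraries, against 33111 for ERAP1, and the strand setting of the counting was not given in the sources used here.

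NLRC5 (ENSG00000140853, chromosome 16), the class I co-activator, was the least abundant member and varied most between the DMSO libraries. It stood at 21.4, 19.3 and 19.97 CPM in DOX 12, 24 and 36, against 23.5, 12.5 and 14.4 CPM in DMSO 11, 23 and 35. DMSO 11 thus lay above all DOX libraries and the other DMSO libraries lay below all of them. The coefficient of variation was 5.17% in DOX, close to the 4.15% of counting alone, and 35.0% in DMSO, where counting gives 4.55%. Its log2 fold change was 0.27 ± 0.22 (edgeR adjusted p = 0.435), 0.59 ± 0.10 without DMSO 11 (adjusted p = 4.26e-05) and 0.09 without DMSO 23. Those 3 values show that the size of the NLRC5 difference rests on which DMSO libraries are used.

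**Figure D2:**
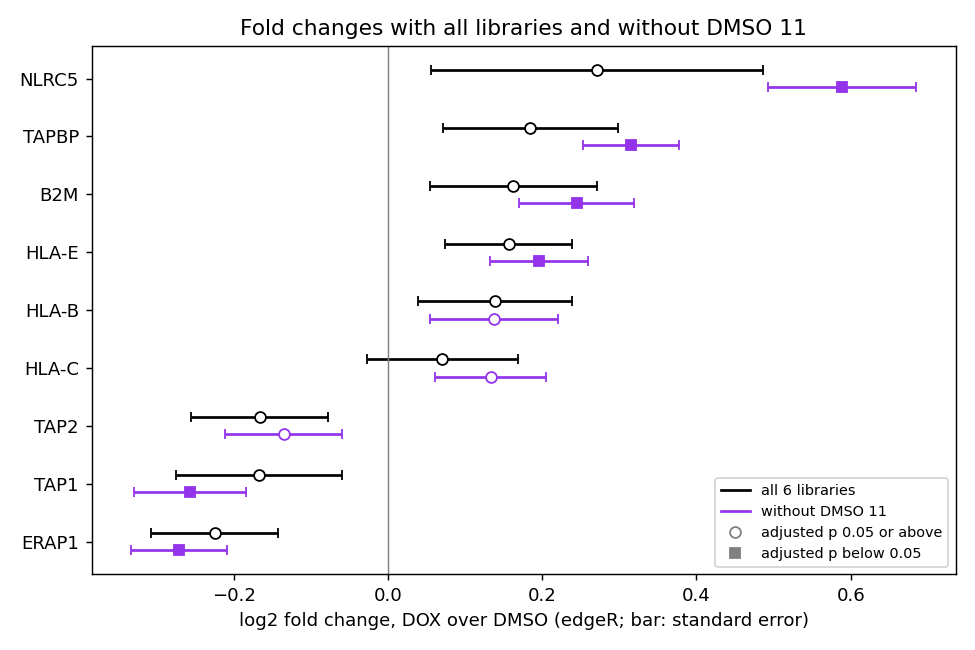
Log2 fold change of each class I gene, DOX over DMSO, from edgeR with all 6 libraries (black) and without DMSO 11 (purple); bars are standard errors and filled squares mark an adjusted p below 0.05. NLRC5 is at 0.27 with all libraries and 0.59 without DMSO 11, and no point with all libraries is filled.

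Levels of different genes were compared per length, as CPM per kilobase of the longest principal transcript in GENCODE 29. B2M was highest, at 219 ± 15.3 in DOX and 196 ± 20.9 in DMSO, and NLRC5 was lowest, at 2.96 ± 0.153 in DOX and 2.46 ± 0.860 in DMSO. Between them in DOX came TAPBP, HLA-C, HLA-E, HLA-B, ERAP1, TAP1 and TAP2, from high to low, and no 2 neighbours in this order overlapped. In DMSO the mean of ERAP1 (37.4 ± 2.31) was above that of HLA-B (35.4 ± 3.88), with overlapping libraries, and TAPBP (109 ± 16.4) overlapped HLA-C (92.4 ± 10.1). HLA-C was at 97.0 ± 2.84 in DOX, above HLA-E at 82.5 ± 1.64 and HLA-B at 39.0 ± 1.86. The order depends on the length used: with the union of all annotated exons, chosen after the data were seen, HLA-E was highest at 72.2 in DOX and B2M stood at 61.5.

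**Figure D3:**
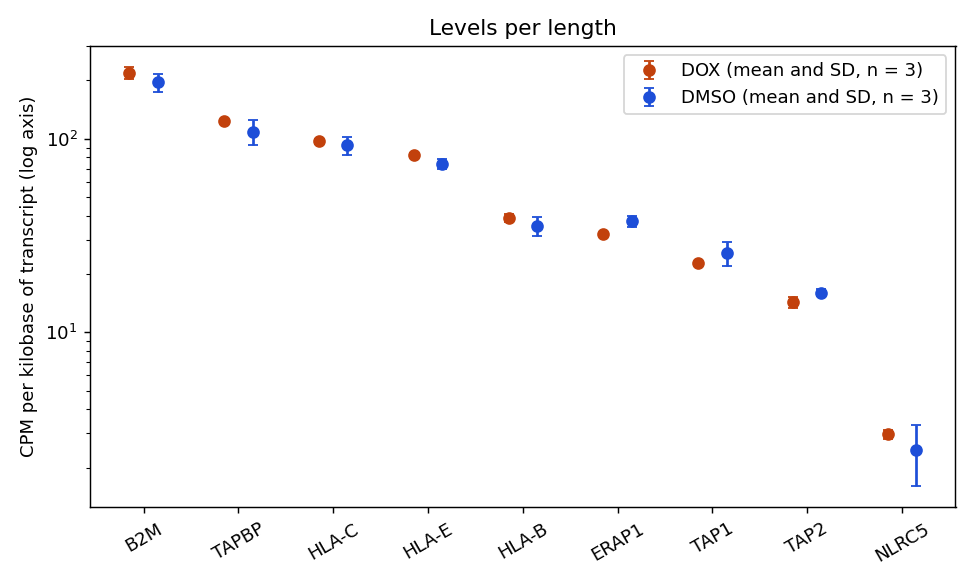
CPM per kilobase of the principal transcript for each class I gene, on a log axis, as mean and SD of 3 libraries in DOX and in DMSO. B2M is highest and NLRC5 lowest in both groups, at 219 and 2.96 in DOX.

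Ratios of counts within a library do not depend on how libraries are scaled, and 8 were compared. HLA-B reached 0.408, 0.392 and 0.413 of the HLA-C count in DOX 12, 24 and 36, and 0.355, 0.413 and 0.392 in DMSO 11, 23 and 35. B2M reached 0.839, 0.944 and 0.864 of the summed HLA-B, HLA-C and HLA-E count in DOX, and 0.902, 0.849 and 0.820 in DMSO. TAP1 over TAP2 was 2.04, 1.79 and 1.85 in DOX and 1.58, 2.23 and 1.88 in DMSO 11, 23 and 35. In these 3 ratios the groups overlapped.

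The ratio of ERAP1 to TAPBP differed most. It was 0.755, 0.754 and 0.756 in DOX 12, 24 and 36, against 0.799 in DMSO 11 and 1.10 and 1.17 in DMSO 23 and DMSO 35. No DOX value reached the lowest DMSO value, with a mean difference of -0.42 on the log2 scale, with a two-sided exact permutation p of 0.1, the smallest possible here, and 0.8 after adjustment over the 8 ratios. The summed TAP1 and TAP2 count over TAPBP was 0.433, 0.454 and 0.439 in DOX, against 0.447 in DMSO 11 and 0.671 and 0.605 in DMSO 23 and DMSO 35 (log2 difference -0.36, exact p = 0.2). NLRC5 over the 3 heavy chains was 0.0516, 0.0457 and 0.0460 in DOX, and 0.0570, 0.0322 and 0.0392 in DMSO 11, 23 and 35. In the last 2 ratios DMSO 11 lay inside or beyond the DOX range on the side away from the other DMSO libraries. None of the 8 ratios passed, and 3 against 3 libraries could not reach 0.05.

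**Figure D4:**
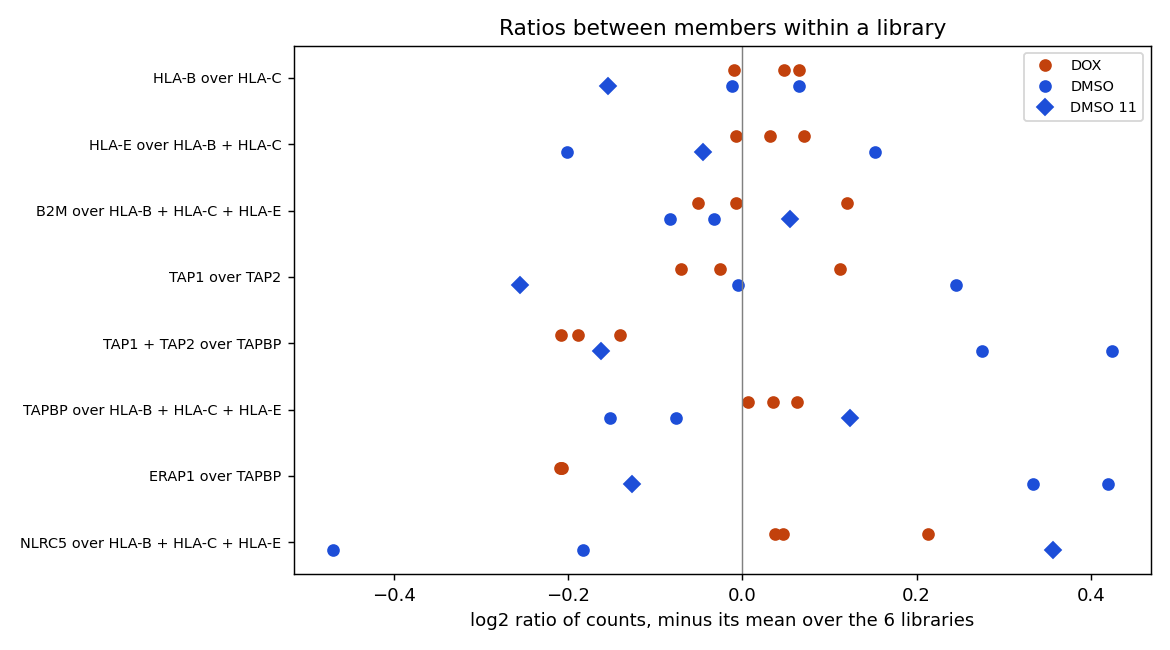
Log2 ratio of counts between class I genes within each library, minus the mean of that ratio over the 6 libraries, for DOX (upper row of each ratio) and DMSO (lower row; the diamond is DMSO 11). The DOX points of ERAP1 over TAPBP coincide, at ratios of 0.754 to 0.756, while DMSO 23 and DMSO 35 lie at 1.10 and 1.17.

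The rest of the pathway was read from 10 lists with 198 symbols, of which 159 genes were tested. EdgeR called 0 of the 159. DESeq2 called 11, 4 higher and 7 lower, which is 7.19% of those with an adjusted p; of all genes it called 3.08% higher and 6.89% lower. The DOX and DMSO libraries did not overlap in 26.4% of the 159, against 30.2% of all genes. Without DMSO 11 edgeR called 55 higher and 34 lower of 161, 55.3%, in the fit that called 49.4% of all genes. Lists and genes are described here by their values; the fold changes are from edgeR, and adjusted p-values are from edgeR unless DESeq2 is named.

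Transcription factors that act on class I promoters had a median log2 fold change of -0.11 over 23 tested genes. IRF1, one of several factors that bind the ISRE, had the lowest edgeR p of all lists and was called lower by DESeq2: it stood at 83.6, 83.0 and 80.8 CPM in DOX 12, 24 and 36, against 121, 149 and 140.1 CPM in DMSO 11, 23 and 35. Its log2 fold change was -0.73 ± 0.09 (edgeR adjusted p = 0.0666, DESeq2 adjusted p = 2.05e-07), and every DMSO library, DMSO 11 included, lay above every DOX library. NFKB2, an NF-kB subunit, was called higher by DESeq2, at 6.26 ± 0.435 CPM in DOX and 4.23 ± 0.205 CPM in DMSO (0.56 ± 0.13, DESeq2 adjusted p = 0.0269). No other NF-kB subunit tested was called by edgeR or DESeq2 over the 6 libraries, and DESeq2 gave RELB no adjusted p. Their log2 fold changes differed in sign, at 0.83 ± 0.41 for RELB, -0.04 ± 0.20 for REL and -0.12 ± 0.09 for RELA. NFYC, a subunit of the factor that binds the Y box, was called lower by DESeq2, at 76.9 ± 1.82 CPM in DOX and 95.1 ± 6.49 CPM in DMSO (-0.31 ± 0.08, DESeq2 adjusted p = 0.0312). The other subunits of that factor differed in direction and were not called over the 6 libraries. NFYA was higher in every DOX library than in any DMSO library (0.38 ± 0.12, DESeq2 adjusted p = 0.0863). NFYB was lower in every DOX library than in any DMSO library (-0.27 ± 0.10, DESeq2 adjusted p = 0.130).

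The proteasome that cuts class I peptides was described by 7 genes, with a median of 0.02. PSMB8, an immunoproteasome subunit encoded beside TAP1, was called lower by DESeq2 and not by edgeR over the 6 libraries: it stood at 82.7, 92.8 and 85.8 CPM in DOX, against 111, 153 and 118 CPM in DMSO 11, 23 and 35 (log2 fold change -0.55 ± 0.13, edgeR adjusted p = 0.0892, DESeq2 adjusted p = 0.00560). Without DMSO 11 edgeR called it lower too (-0.64 ± 0.09, adjusted p = 3.81e-05). POMP, its assembly factor, was at 86.4 ± 7.08 CPM in DOX and 70.6 ± 14.4 CPM in DMSO (adjusted p = 0.229). PSMB9, which shares a divergent promoter region with TAP1, was at 36.5 ± 0.838 CPM in DOX and 37.8 ± 3.55 CPM in DMSO (-0.05 ± 0.10 on the log2 scale). In peptide loading and trimming outside the members, none of 14 genes was called by edgeR or DESeq2, and the median was 0.06. HSPA5, the main chaperone of the endoplasmic reticulum, stood at 234 ± 9.15 CPM in DOX and 154 ± 64.2 CPM in DMSO, where DMSO 11 held 228 CPM and the others 117 and 116 CPM. SPCS3, a signal peptidase subunit, was at 201 ± 3.89 CPM in DOX and 173 ± 16.2 CPM in DMSO (0.22 ± 0.09, adjusted p = 0.185).

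Genes of class I turnover and trafficking gave DESeq2 calls both ways, with a median of 0.03 over 23 genes. IRGQ, which directs class I molecules to autophagy, was called higher at 21.8 ± 1.42 CPM in DOX and 13.4 ± 4.06 CPM in DMSO (0.70 ± 0.20, DESeq2 adjusted p = 0.0213). SEC61A1, the translocon channel, was called higher at 0.41 ± 0.12 (DESeq2 adjusted p = 0.0452). UBE2J1, a ubiquitin-conjugating enzyme of endoplasmic reticulum degradation, was called lower at 18.6 ± 0.655 CPM in DOX and 29.1 ± 7.62 CPM in DMSO (-0.64 ± 0.18, DESeq2 adjusted p = 0.0178). Among 19 chromatin repressors the median was 0.02, and EZH2, the polycomb methyltransferase that can silence class I genes, was called lower by DESeq2 at 139 ± 5.77 CPM in DOX and 169 ± 11.03 CPM in DMSO (-0.28 ± 0.09, DESeq2 adjusted p = 0.0481). BCOR, of a variant polycomb complex, was at -0.41 ± 0.14 and was not called (DESeq2 adjusted p = 0.0549).

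Interferon signalling genes were mixed. Of 14 receptors and signal genes none was called by edgeR or DESeq2 and the median was 0.06; IFNGR1, the ligand-binding chain of the interferon gamma receptor, was at 22.3 ± 1.17 CPM in DOX and 30.2 ± 6.81 CPM in DMSO, with 22.3 CPM in DMSO 11. PTPN11, a phosphatase, was at 331 ± 4.36 CPM in DOX and 282 ± 31.1 CPM in DMSO (adjusted p = 0.189). Of 38 interferon stimulated genes, whose median was 0.10, DESeq2 called IFITM1 and SP110 lower and SAMD9 higher. IFITM1, a membrane protein that blocks virus entry, stood at 107, 118 and 116 CPM in DOX, against 159, 181 and 155 CPM in DMSO 11, 23 and 35 (-0.54 ± 0.09, DESeq2 adjusted p = 0.000243). SP110 was at 17.9 ± 0.950 CPM in DOX and 24.6 ± 2.44 CPM in DMSO, and SAMD9 at 61.7 ± 3.65 CPM in DOX and 41.7 ± 10.8 CPM in DMSO (DESeq2 adjusted p = 0.0116 and 0.0343).

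**Figure D5:**
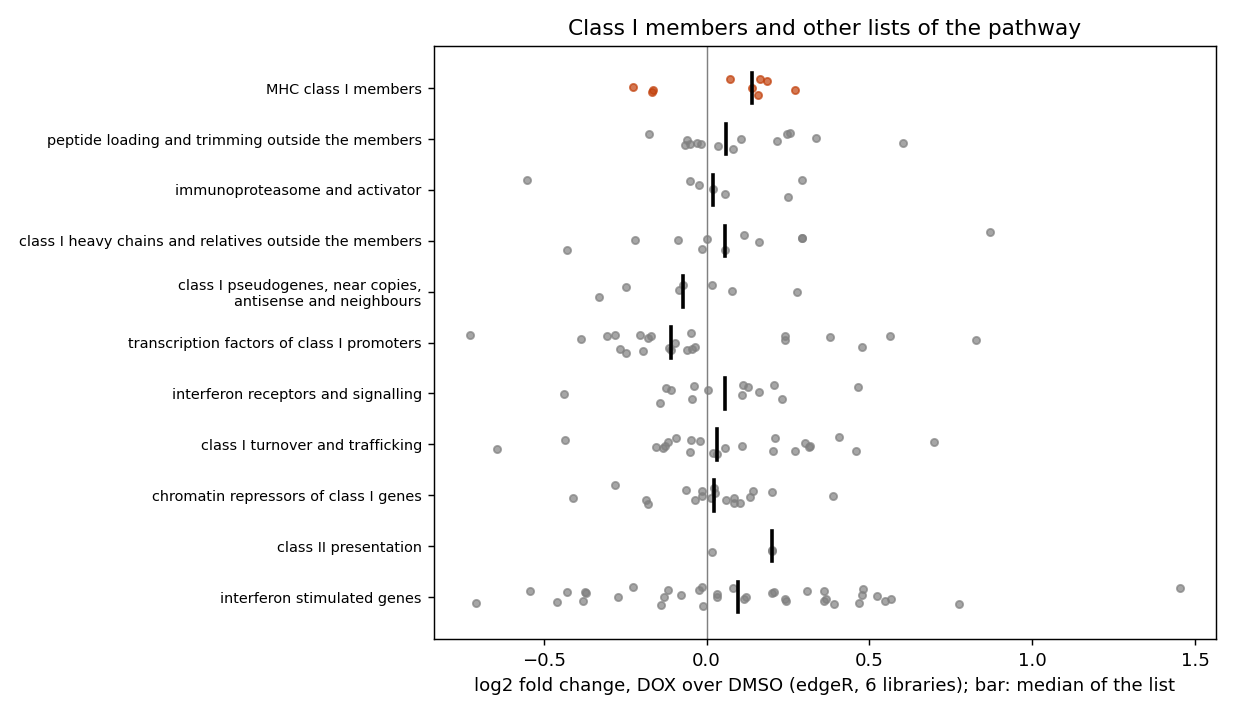
Log2 fold change (DOX over DMSO, edgeR, 6 libraries) of every tested class I member (top row) and of every tested gene of the 10 pathway lists; each point is a gene and the black bar is the list's median. The members lie between -0.22 and 0.27 with a median of 0.14, and the transcription factor list has a median of -0.11 with IRF1 at -0.73.

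Genes were ranked by Pearson correlation of log2 CPM over the 6 libraries with the members' mean, among 9302 named genes with at least 10 CPM. The members did not share 1 pattern: r was 0.960 between NLRC5 and TAPBP and -0.925 between NLRC5 and TAP1. Likeness to the mean is thus not likeness to each member. Among the highest were GSTP1 (r = 0.996), FZD1 (0.994), PISD (0.993) and RIC8A (0.993), and the lowest DENND1B (-0.996), PCGF5 (-0.994), ERCC4 (-0.994), ZNF430 (-0.993) and OTUD6B (-0.992). For NLRC5 alone the highest were DNMT3B, TERT and GTF2I (0.998 each), and DFFB and CDCA5 (0.997 each). Values this high were common: 789 genes had r above 0.9 with the members' mean and 1336 with NLRC5. All these values share the same 6 libraries and are a description, so no p is given.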

How the data were processed

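RNA was sequenced as strand-specific paired-end 100-base libraries, per the labels' protocols. The authors deposited unnormalised counts of reads for each Ensembl gene. Their second deposited table holds, per the file headers, a mean normalised signal, log2 fold changes with errors, a Wald score and p-values. Per the submitters' processing notes, the build was hg19 and the tools included featureCounts, STAR 2.5.2a and DESeq2 1.12.4; the annotation release was not given in the sources used here. Count columns were tied to groups, not to numbered replicates. The 92 spike-in rows, with 0 counts, were left out. No 2 libraries of the same group agreed within sampling noise (chi-square per gene at least 4.57).

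Counts were filtered with filterByExpr, scaled by TMM and fitted in edgeR 4.0.16 under R 4.3.3 (quasi-likelihood test, robust, group as the only term), with Benjamini-Hochberg adjustment over 15949 genes and a threshold of 0.05. Standard errors of edgeR fold changes were taken as the log2 value divided by the root of its F statistic. As alternatives, DESeq2 1.42.0 and voom from limma 3.58.1 were run. Log2 CPM used a prior count of 2 and ratios 0.5 added counts. Permutation tests were exact and two-sided. Transcript lengths, overlaps and shared windows came from GENCODE 29, which is of another build than the counts, and promoters from RefSeq. The tests were tried on simulated counts.

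The members and lists were chosen with earlier results of these data known. Named genes were the members, MYC and MYCN, up to 4 called genes per list or, where edgeR called none, those 2 with the smallest edgeR p, and the genes most like the members, of which 1 is not reported here. NFYA, NFYB, NFYC, REL, RELA, RELB, SEC61A1, SAMD9, PSMB9 and HCG18 were named after their values were seen. So were the class II genes CIITA, HLA-DRA and HLA-DQB1, the marker genes, and the antisense and overlapping genes. Figures were drawn with matplotlib 3.10.9.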

Additional observations from a re-analysis of the deposited data

How the results depend on the processing

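Each of the 9 class I genes kept its direction and stayed uncalled under DESeq2, voom, DESeq2 size factors, upper quartile factors, library totals, no filter, a filter of 1 CPM in 3 libraries and a non-robust fit, with adjusted p-values from 0.0951 to 0.821. The count of all genes called, 5 by edgeR, was 1382 with DESeq2, 1761 with no filter and 0 to 8109 with 1 library left out, and 6510 with DESeq2 without DMSO 11, a setting added after the data were seen. The members called were 0 to 6 with 1 library left out and 6 in that added setting. The genes called in the 10 lists were 11 with DESeq2, 17 with no filter, 0 to 89 with 1 library left out and 83 in the added setting. The members' median log2 fold change ran from 0.06 to 0.16 with 1 library left out, and HLA-C from -0.0188 to 0.13. Of the log2 ratios, TAP1 over TAP2 ran from -0.11 to 0.14, HLA-E over HLA-B and HLA-C from -0.0220 to 0.16, and B2M over the 3 heavy chains from -0.00873 to 0.0785; the others kept their sign. The cause of these changes was not tested. Where a DMSO library was left out, 2 remained. No paired analysis was possible because the count columns carry none of the replicate numbers in the labels. Counts were lowest for NLRC5 and TAP2, at 369 to 1169 per library. For NLRC5 the coefficient of variation in DMSO was 35.0%, above the 4.55% of counting alone.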

Other observations

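MHC class II genes, which human T cells express mainly after activation, were close to silent in this line. Their 13 genes together summed to 4.10 to 4.99 CPM in DOX and 3.45 to 4.40 CPM in DMSO, and HLA-DRA and HLA-DQB1 held 0 counts in all 6 libraries, which allows up to 0.105 CPM in the smallest library. CIITA, the class II co-activator related to NLRC5, was at 0.430 CPM in DOX and 0.423 CPM in DMSO on average. The 3 class II genes tested (CIITA, HLA-DMA and HLA-DOB) were not called by edgeR or DESeq2, which gave CIITA no adjusted p; HLA-DMA was at 2.84 ± 0.392 CPM in DOX and 2.47 ± 0.312 CPM in DMSO (SD, n = 3 each), and HLA-DOB at 0.859 ± 0.262 CPM in DOX and 0.746 ± 0.0896 CPM in DMSO.

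Relatives of the class I chains outside the group were not called by edgeR or DESeq2 over the 6 libraries either. The 11 tested genes had a median log2 fold change of 0.06. Without DMSO 11 edgeR called 2 of the 11 as higher, PROCR among them, and 2 as lower, ULBP1 among them (adjusted p = 0.000306 and 4.06e-05). That fit called 49.4% of all genes. The NKG2D ligand ULBP1, which marks stressed cells for NK cells, stood at 7.10 ± 0.255 CPM in DOX and 9.55 ± 3.20 CPM in DMSO, with 5.93 CPM in DMSO 11 and 11.99 and 10.7 CPM in DMSO 23 and DMSO 35. PROCR, the protein C receptor with a class I-like fold, was at 1.34 ± 0.267 CPM in DOX and 0.733 ± 0.479 CPM in DMSO, with 1.29 CPM in DMSO 11. For both genes DMSO 11 lay on the DOX side of the other DMSO libraries. The pseudogenes and neighbouring transcripts of the class I region summed to 64.4 to 64.9 CPM in DOX and 63.3 to 65.3 CPM in DMSO. Most of that sum was HCG18, which is not an HLA pseudogene, at 47.8 ± 0.156 CPM in DOX and 45.3 ± 3.75 CPM in DMSO. The pseudogene HLA-K was at 2.09 ± 0.315 CPM in DOX and 2.63 ± 0.400 CPM in DMSO.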
